A study of Rattus norvegicus with 10 samples.

Results

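Cholesterol synthesis enzymes are described here through 8 genes, chosen by symbol: Hmgcs1, Idi1, Fdft1, Sqle, Lss, Cyp51, Msmo1 and Dhcr7. All 8 were found among the 23487 genes of the count table. They were measured in primary rat glia by RNAseq in 10 libraries, 2 for each of 5 groups. Oligodendrocyte progenitor cells (OPCs) were shaken off mixed glial cultures of the cortices of newborn Sprague-Dawley pups, and oligodendrocytes (OLs) were obtained by letting these cells differentiate. OLs were assayed 5 days after transfection, on differentiation day 5, with a mimic of miR-145-5p (OL miR-145), with miR-145-5p and miR-219 mimics together (OL miR-145+miR-219) or with a scrambled mimic (OL miR-ctl). OPCs were assayed 24 h after transfection with an inhibitor of miR-145-5p (OPC anti-miR-145) or a scrambled inhibitor (OPC anti-miR-ctl). Each oligonucleotide was used at 30 nM, and whether this was the dose of each mimic or of their sum in the combined group was not stated. For the OL miR-145 libraries the titles name miR-145 alone while a treatment label also names miR-219, and the titles were followed. The labels name no genetic change in any group. Each culture could hold other glia. The study defines a replicate of primary cells by cultures from a single mouse. It gives no separate definition for rat cultures and does not say which animals each library came from. A passage of the study's methods on RNAseq names lentiviral delivery in place of mimics, and the labels, which name mimics, were followed.

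Cholesterol is a main lipid of myelin and crosses the blood-brain barrier hardly at all, so the brain makes its own, and OLs are known as heavy producers while they build myelin. Synthesis starts from acetyl-CoA, runs through mevalonate and the isoprenoids to squalene, closes squalene into the sterol ring and then trims and reduces lanosterol to cholesterol. The genes of the pathway are classic targets of SREBP2, the product of Srebf2, a membrane-bound transcription factor. When sterols are scarce its escort SCAP carries it to the Golgi, where proteases release the part that enters the nucleus, and when sterols are plentiful the INSIG proteins hold it back.

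The miRNA that was added or inhibited is shown first, because every group is defined by it or by a scrambled control. Its mature sequence in the RefSeq rat assembly GRCr8, chr18:57370033-57370055 on the minus strand, has 23 bases, with the seed (bases 2 to 8) in capitals.
rno-miR-145-5p: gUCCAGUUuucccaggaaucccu

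Promoters were read from RefSeq (GRCr8, a later build than the Rnor6.0 annotation the counts were made on) as windows of 300 bases, 250 before and 50 after a start site. A window was found for 6 of the 8 genes, and Fdft1 and Sqle had none in the table. Shown are the 250 upstream bases of Msmo1 and Dhcr7, which had the largest increases in OPCs given the inhibitor, and of Idi1, which had the smallest. These 3 were chosen after their values were seen. Capitals mark the letters CCAAT or their reverse complement ATTGG, the CCAAT box bound by NF-Y.
Msmo1 promoter, GRCr8 chr16:29746863-29747112, plus strand: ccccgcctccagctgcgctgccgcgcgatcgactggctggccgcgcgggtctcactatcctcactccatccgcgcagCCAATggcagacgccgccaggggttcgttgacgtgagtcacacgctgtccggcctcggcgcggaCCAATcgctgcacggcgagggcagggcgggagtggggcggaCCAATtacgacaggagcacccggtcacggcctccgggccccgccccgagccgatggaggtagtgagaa
Dhcr7 promoter, GRCr8 chr1:208444184-208444433, plus strand: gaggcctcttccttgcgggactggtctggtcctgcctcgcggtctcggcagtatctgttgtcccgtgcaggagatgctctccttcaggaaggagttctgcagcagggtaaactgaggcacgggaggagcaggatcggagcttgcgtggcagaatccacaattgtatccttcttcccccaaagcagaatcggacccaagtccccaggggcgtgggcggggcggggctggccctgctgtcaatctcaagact
Idi1 promoter, GRCr8 chr17:66547525-66547774, minus strand: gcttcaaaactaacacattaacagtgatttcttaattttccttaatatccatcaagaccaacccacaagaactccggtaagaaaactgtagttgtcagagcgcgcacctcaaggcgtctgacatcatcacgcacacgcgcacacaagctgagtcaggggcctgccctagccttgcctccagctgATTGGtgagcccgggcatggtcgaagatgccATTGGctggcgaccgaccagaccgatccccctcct

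The CCAAT letters were found in 4 of the 6 windows, namely those of Hmgcs1, Msmo1, Idi1 and Lss, against 37.5% of the 33469 rat promoters in the table. Msmo1 held 3 matches, the first bases lying 173, 109 and 68 bases before the start site, and Idi1 held 2, at 66 and 35 bases before it. Dhcr7 and Cyp51 held none. The GC box bound by Sp1, written GGGCGG or CCGCCC, was in 5 of the 6 windows, all but that of Idi1, against 33.1% of all promoters. For the sterol regulatory element bound by SREBPs, the letters TCACNCCAC or GTGGNGTGA were searched. They were in 0 of the 6 windows and in 1.12% of all promoters. An element with other letters or outside the window would be missed, so this search cannot show that the element is absent. Among 11 other enzymes of the pathway with a window, 10 held CCAAT, 9 held the GC box and 0 held TCACNCCAC. CCAAT and GC box matches shared no bases in the 6 windows. These matches describe the letters of the windows only, and 4 of 6 windows is too few for a comparison with the whole table.

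Library totals ran from 33505706 to 42684206 counts. The 8 genes were well covered, from 2199 counts (Idi1 in an OL miR-145 library) to 56084 (Hmgcs1 in an OPC anti-miR-145 library), so counting error was small beside the spread between OL libraries, while OPC libraries of a group differed by no more than counting error for some genes, such as Fdft1. Levels are given as CPM, counts brought to the same library total after TMM scaling over all 10 libraries, and are compared between groups for the same gene, never between genes, since transcript length was not corrected for. A gene is called where edgeR's quasi-likelihood test across all genes gave a Benjamini-Hochberg adjusted p under 0.05. Markers matched the stage labels: the summed level of 8 genes of maturing OLs, such as Mbp, was 15530 to 34021 CPM in the 6 OL libraries and 1086 to 1314 CPM in the 4 OPC libraries. The 4 OPC genes summed to 1186 to 1892 CPM in OL libraries and 3545 to 4560 CPM in OPC libraries. Pdgfra, Cspg4 and Ptprz1 were called lower in OL miR-ctl than in OPC anti-miR-ctl and C1ql1 higher (log2 fold change 0.36, edgeR adjusted p = 0.0339). Genes of other glia were detected too. The 6 astrocyte genes summed to 4982 to 12018 CPM in OL libraries and 218 to 443 CPM in OPC libraries. The 8 microglial genes summed to 274 to 736 CPM in OL libraries and 670 to 827 CPM in OPC libraries. In OPC libraries most of the astrocyte sum was Slc1a3. It was at 404 and 376 CPM in OPC anti-miR-ctl and 167 and 203 CPM in OPC anti-miR-145. Gfap and Slc1a2 were at 7.77 to 51.1 CPM there, and Aqp4, Aldh1l1 and Gja1 at 0.164 to 2.47 CPM. These astrocyte genes were named after their values were seen. No listed marker found in the files was at 0 in a whole group. In bulk RNA, fewer cells of a type and less RNA per cell cannot be told apart.

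The level of all 8 enzymes followed the same order of group means. It was highest in OPC anti-miR-145, followed by OPC anti-miR-ctl, OL miR-ctl and OL miR-145+miR-219, and lowest in OL miR-145. Summed over the 8 genes, the level was 3903 to 3954 CPM in OPC anti-miR-145 and 3017 to 3045 CPM in OPC anti-miR-ctl. It was 1842 to 2825 CPM in OL miR-ctl, 1743 to 2149 CPM in OL miR-145+miR-219 and 1345 to 1934 CPM in OL miR-145. The OPC groups were tight and apart from each other, while the 3 OL groups overlapped. Neighbours in the order did not overlap for 8 of 8 genes between the OPC groups, where 32.8% of all genes were separate and higher. Between OPC anti-miR-ctl and OL miR-ctl, 4 of 8 (Idi1, Fdft1, Sqle and Msmo1) did not overlap. There 40.5% of all genes were separate and lower in OLs, a share close to that of the enzymes. Neighbours overlapped for 8 of 8 genes between OL miR-ctl and OL miR-145+miR-219, where 19.4% of all genes were separate and lower with both mimics. All 8 overlapped again between OL miR-145+miR-219 and OL miR-145, where 13.6% of all genes were separate and higher with both mimics.

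**Figure D1:**
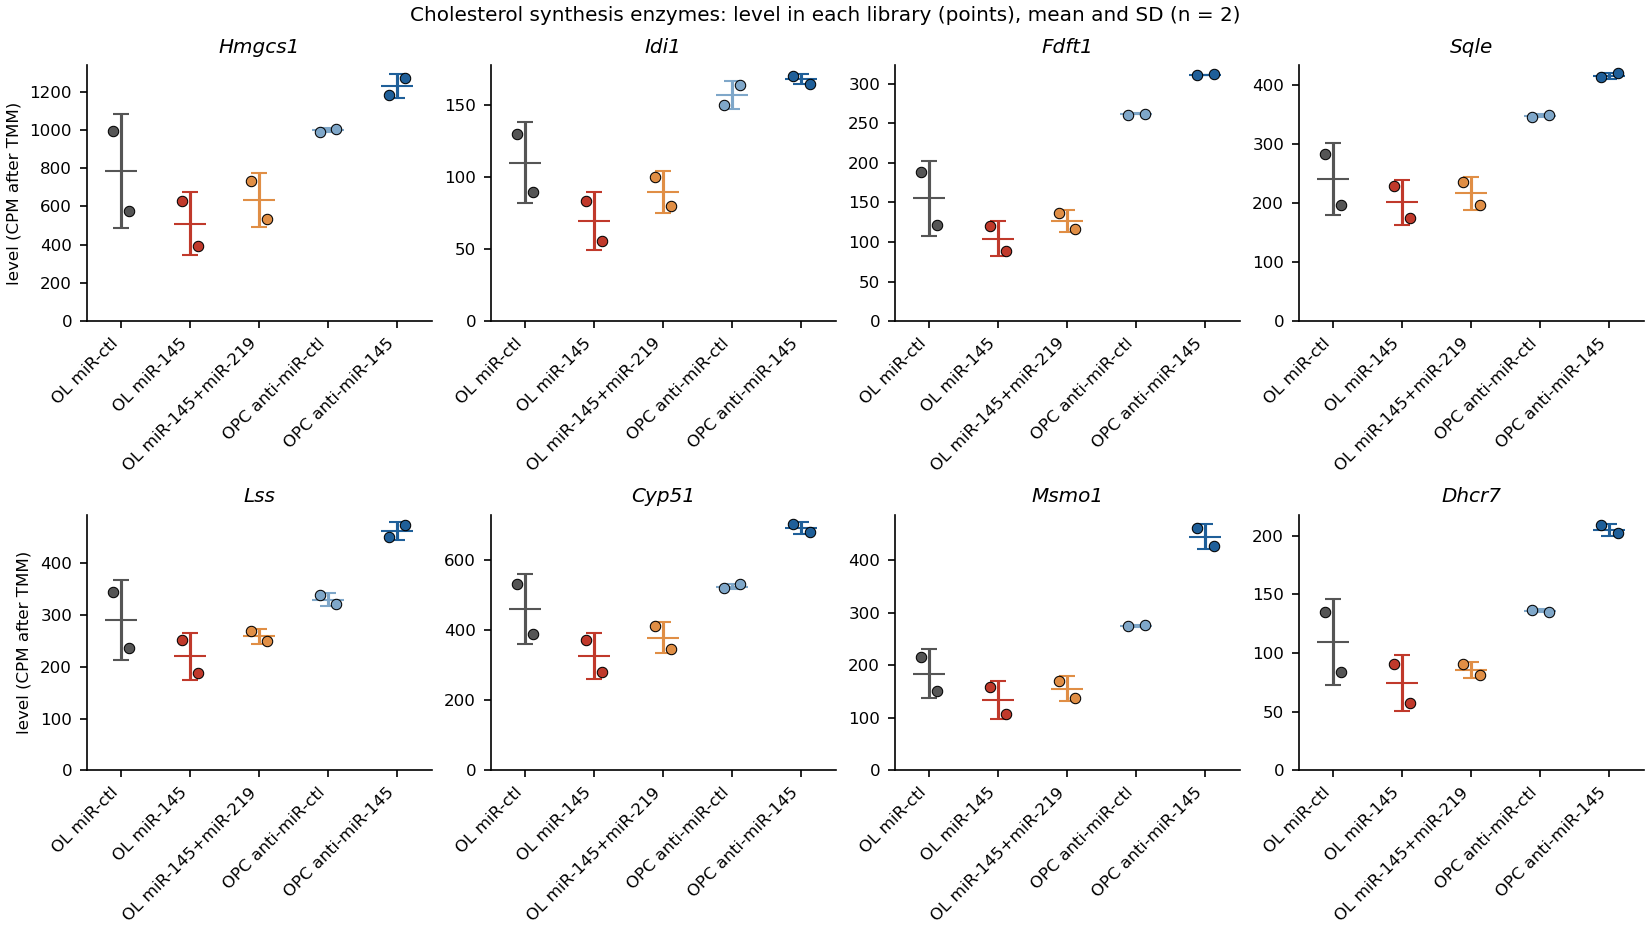
Level in CPM after TMM (y axis, from 0) of the 8 enzymes in each library (points), with the mean and SD of the 2 libraries of each group. The OPC anti-miR-145 libraries sit highest in all 8 panels, the OL groups overlap, and OL libraries spread far more than OPC libraries.

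The spread within OL groups was shared by all 8 genes. The library numbered 1 was higher than the library numbered 2 for 8 of 8 enzymes in each OL group, 1.36 to 1.73 times in OL miR-ctl, 1.31 to 1.6 times in OL miR-145 and 1.08 to 1.38 times in OL miR-145+miR-219. In the OPC groups the ratio of the same numbers was 0.931 to 1.08 and 0.916 to 1.05. Mbp, which encodes a major myelin protein, went the other way within OL groups, at 6224 and 13143 CPM in OL miR-ctl, 6236 and 10665 CPM in OL miR-145 and 8096 and 15517 CPM in OL miR-145+miR-219. Within each OL group the library with more Mbp had less of the enzymes, and the part of OL maturity in the enzyme levels was not tested.

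The question of what loss of miR-145-5p activity does in progenitors was addressed by OPC anti-miR-145 against OPC anti-miR-ctl. Of the 8 enzymes, 7 rose with the inhibitor, by 1.2 to 1.63 times, and all 8 were higher in both inhibitor libraries than in both control libraries. Over all 15496 genes tested, 12.1% were called higher and 32.8% had both inhibitor libraries above both controls. The median log2 fold change was 0.36 over the 8 enzymes and 0.0 over all genes.

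Among the 8, the enzymes from ring closure onwards had the largest increases. Msmo1, the methylsterol monooxygenase that starts removal of the C4 methyl groups, was at 462 and 428 CPM with the inhibitor and 274 and 277 CPM without. Its log2 fold change was 0.71 ± 0.09 (SE, n = 2 per group, edgeR adjusted p = 0.00127). Dhcr7, the reductase of 7-dehydrocholesterol that ends the Kandutsch-Russell branch, was at 209 and 202 CPM against 137 and 135 CPM, a log2 fold change of 0.61 ± 0.08 (edgeR adjusted p = 0.00171). Libraries of a group differed little for these genes beside the distance between groups. Lss, the cyclase that makes lanosterol, was at 450 and 475 CPM against 339 and 321 CPM (log2 fold change 0.50 ± 0.08, edgeR adjusted p = 0.00417). Cyp51, the lanosterol 14-alpha-demethylase, was at 703 and 680 CPM against 520 and 531 CPM (0.41 ± 0.08 on the log2 scale, edgeR adjusted p = 0.0104). Lss and Cyp51 thus lay between the late enzymes and the early ones.

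The enzymes up to squalene epoxide had smaller differences. Hmgcs1, the cytosolic HMG-CoA synthase near the head of the pathway, was at 1185 and 1273 CPM with the inhibitor and 991 and 1007 CPM without (log2 fold change 0.31 ± 0.08, edgeR adjusted p = 0.0293). Fdft1, squalene synthase and the first step committed to sterols, was at 311 and 312 CPM against 261 and 262 CPM (0.27 ± 0.08, edgeR adjusted p = 0.0416). Sqle, the squalene epoxidase, was at 412 and 419 CPM against 345 and 348 CPM (0.28 ± 0.08, edgeR adjusted p = 0.0375). For all 3 the groups were clearly separate. Idi1, the isopentenyl diphosphate isomerase, was at 170 and 165 CPM against 150 and 164 CPM, with a log2 fold change of 0.11 ± 0.09 that did not pass (edgeR adjusted p = 0.377). Its libraries nearly touched. Whether the late enzymes rose more than the early ones was not tested, and enzymes outside the 8 did not follow this order: the early Mvk and Mvd had log2 fold changes of 0.72 and 0.68, and the late Sc5d and Ebp 0.20 and 0.21.

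The sizes were stable and the calls were less so. With 1 library left out, all 8 fold changes stayed positive, from 0.02 to 0.16 for Idi1, 0.23 to 0.28 for Fdft1 and 0.64 to 0.78 for Msmo1, but the number of enzymes called fell to 3 without OPC anti-miR-ctl replicate 1 and to 2, Msmo1 and Dhcr7, without its replicate 2. A single fit of all 10 libraries, which shares its estimate of spread with the OL groups, called 0 of the 8, although 4 reached an unadjusted p under 0.05 (Msmo1: 0.72 on the log2 scale, edgeR adjusted p = 0.0553). DESeq2 on the 4 libraries called 7.

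Other transcripts moved between the same 4 libraries. Over all genes 16.0% were called lower. All 10 listed interferon response genes were called lower with the inhibitor, with a median log2 fold change of -3.16, and summed to 218 to 256 CPM against 1738 to 1847 CPM in OPC anti-miR-ctl. The 8 microglial genes had 4 called higher and 3 called lower, and the 6 astrocyte genes had 1 called higher (Gfap, named after its values were seen, at 40.7 and 51.1 CPM against 8.23 and 7.81 CPM) and 2 called lower. The 8 genes of maturing OLs had 1 called higher and 2 called lower. Their part in the enzyme result was not tested.

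**Figure D2:**
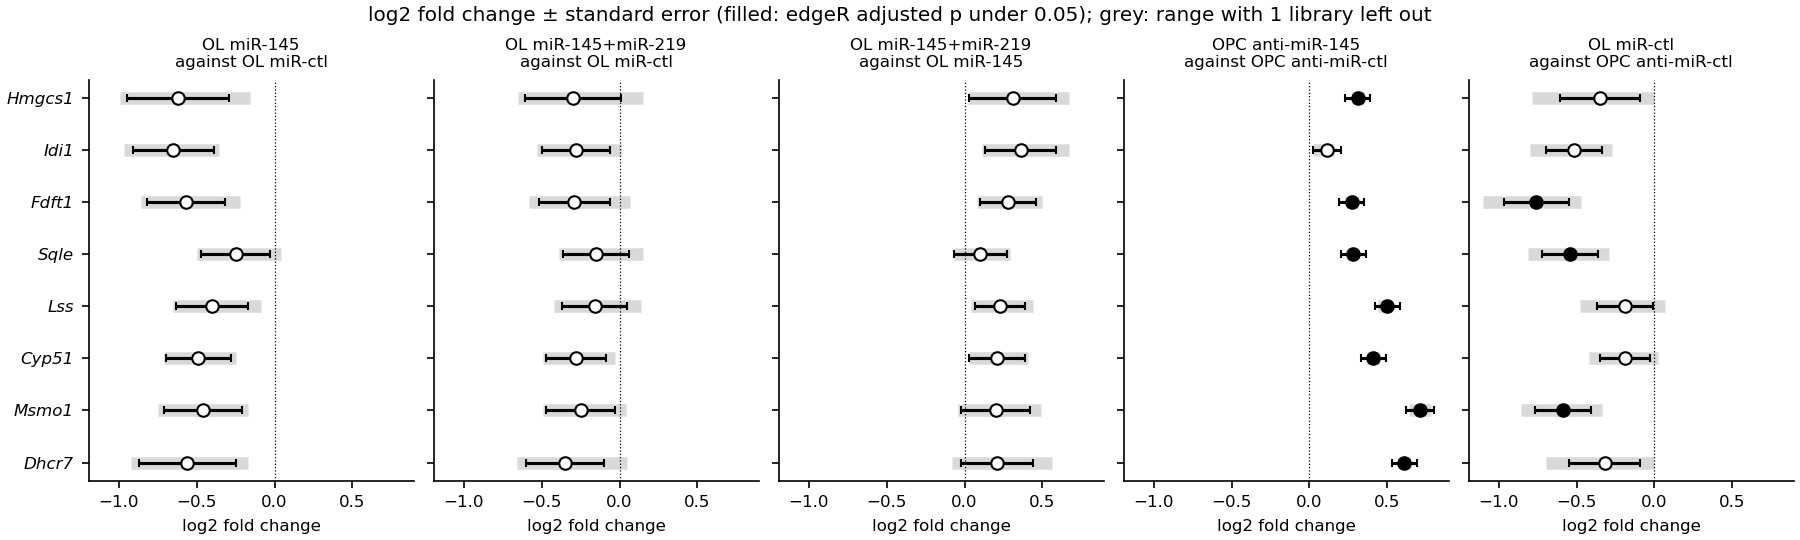
log2 fold change ± SE of each enzyme in the 5 comparisons (points, filled where edgeR's adjusted p was under 0.05), with the range over fits that leave out 1 library in grey. In OPCs given the inhibitor the points lie between 0.11 and 0.71 with narrow ranges, and 7 of 8 are filled. In the 3 OL comparisons 0 are filled and the ranges are wide.

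The opposite manipulation, extra miR-145-5p in differentiating OLs, was addressed by OL miR-145 against OL miR-ctl. The mean of each of the 8 enzymes was lower with the mimic, by 0.25 to 0.65 on the log2 scale, and 0 of the 8 were called. The number called changed where the library number entered the fit as a block, as given in the last section, but the numbers are not shown to pair the libraries. edgeR called 0.0% of 15461 genes in this comparison. The median log2 fold change was -0.52 over the 8 enzymes and -0.01 over all genes. At an unadjusted p under 0.05, 1 enzyme (Idi1) was lower against 4.38% of all genes, and both mimic libraries lay below both controls for 3 (Idi1, Fdft1 and Cyp51) against 24.4% of all genes. DESeq2 called 0 of the 8 and 4.2% of all genes, and gave 3 enzymes an unadjusted p under 0.05.

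Hmgcs1, at the head of the pathway, was at 628 and 393 CPM with the mimic and 995 and 574 CPM in the control. The groups overlapped, because the higher mimic library exceeded the lower control library (log2 fold change -0.62 ± 0.33, edgeR adjusted p = 0.473). Idi1 was at 83.7 and 55.5 CPM against 130 and 89.8 CPM, with no overlap by a margin of a few CPM (-0.65 ± 0.26 on the log2 scale, edgeR unadjusted p = 0.0493, adjusted p = 0.371). Fdft1 was at 120 and 88.3 CPM against 189 and 122 CPM, again just apart (-0.57 ± 0.25 on the log2 scale, edgeR adjusted p = 0.406). These 3 enzymes had the largest differences in mean, together with Dhcr7.

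Cyp51 was at 373 and 281 CPM with the mimic and 532 and 390 CPM in the control, with no overlap (log2 fold change -0.49 ± 0.21, edgeR adjusted p = 0.399). Dhcr7 was at 90.9 and 57.2 CPM against 135 and 83.4 CPM (-0.56 ± 0.31, edgeR adjusted p = 0.477), and Msmo1 at 159 and 108 CPM against 216 and 151 CPM (-0.46 ± 0.25, edgeR adjusted p = 0.474). Dhcr7 and Msmo1, which rose most in OPCs given the inhibitor, overlapped between the OL groups. Lss was at 252 and 188 CPM against 345 and 236 CPM (-0.40 ± 0.23, edgeR adjusted p = 0.506). Sqle was at 228 and 174 CPM against 283 and 197 CPM, the smallest difference (-0.25 ± 0.22, edgeR adjusted p = 0.658). With OL miR-ctl replicate 1 left out the 8 differences ran from -0.36 to 0.04, and that of Sqle turned positive, at 0.04. The standard errors, 0.21 to 0.33, were several times those in OPCs.

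Markers of other cells differed between these 4 libraries. All 6 astrocyte genes were higher in both mimic libraries than in both controls (median log2 fold change 0.88, 0 called by edgeR, 5 at an unadjusted p under 0.05 and 4 called by DESeq2, where 22.9% of all genes were separate and higher and 8.99% were higher at that unadjusted p), and they summed to 8250 to 12018 CPM against 4982 to 5820 CPM. All 8 microglial genes were higher on average, with summed levels of 292 to 736 CPM against 285 to 429 CPM. The maturing OL genes summed to 15530 to 24815 CPM with the mimic and 16875 to 30998 CPM in the control. Their part in the lower enzyme levels was not tested.

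Both mimics together were compared with the same control libraries, so this comparison shares them with that of miR-145 alone. The 8 enzymes were lower on average by 0.15 to 0.35 on the log2 scale (median -0.28 against 0.0 over all genes), 0 were called, 0 had an unadjusted p under 0.05 and 0 were separate between groups. edgeR called 0.0% of 15436 genes, 2.23% were lower at an unadjusted p under 0.05 and 19.4% were separate and lower, and DESeq2 called 0 of the 8 and 0.687% of all genes. Hmgcs1 was at 735 and 534 CPM with both mimics, Cyp51 at 411 and 348 CPM and Dhcr7 at 90.7 and 80.9 CPM. The higher library of each pair lay within the OL miR-ctl range and the lower library below it. Without OL miR-ctl replicate 1 the differences of 7 of the 8 turned positive, up to 0.15, and that of Cyp51 was -0.03.

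The effect of adding miR-219 was addressed by OL miR-145+miR-219 against OL miR-145. All 8 enzymes were higher on average with both mimics, by 0.10 for Sqle to 0.36 for Idi1 on the log2 scale (median 0.22 against 0.0 over all genes), and 0 were called by edgeR or DESeq2. None of the 8 was separate between the groups, against 13.6% of all genes separate and higher, and 0 had an unadjusted p under 0.05 against 0.329% of all genes higher at that level. Over 15501 genes edgeR called 0.0% and DESeq2 0.0581%. Idi1 was at 100 and 79.6 CPM with both mimics and 83.7 and 55.5 CPM with miR-145 alone, and Fdft1 at 137 and 117 CPM against 120 and 88.3 CPM. Msmo1 was at 171 and 138 CPM, Lss at 269 and 249 CPM and Sqle at 236 and 197 CPM with both mimics. The lower library of each pair with both mimics fell below the higher library with miR-145 alone.

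The scrambled controls of OLs and OPCs were set against each other to place the enzymes along differentiation. Cell stage, medium, time after transfection and the kind of control oligonucleotide differed together in this comparison and cannot be told apart. All 8 enzymes had a lower mean in OL miR-ctl than in OPC anti-miR-ctl, and 3 fell: Fdft1, by 0.76 ± 0.21 on the log2 scale (edgeR adjusted p = 0.0274), Msmo1, by 0.59 ± 0.18 (edgeR adjusted p = 0.0355), and Sqle, by 0.54 ± 0.18 (edgeR adjusted p = 0.0487). Over all 15721 genes 28.7% were called lower. The median was -0.44 over the 8 enzymes and 0.01 over all genes. Both OL libraries lay below both OPC libraries for 4 enzymes, these 3 and Idi1, against 40.5% of all genes, so the shares over the enzymes were close to those over all genes.

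Fdft1 was at 189 and 122 CPM in OL miR-ctl and 261 and 262 CPM in OPC anti-miR-ctl, and Idi1 was at 130 and 89.8 CPM against 150 and 164 CPM (log2 fold change -0.52 ± 0.18, edgeR adjusted p = 0.0579). Hmgcs1, Lss, Cyp51 and Dhcr7 were lower by 0.35, 0.19, 0.19 and 0.32 on the log2 scale and not called, and for these 4 the higher OL library lay above the lower OPC library. For Cyp51 the levels were 532 and 390 CPM in OLs and 520 and 531 CPM in OPCs. The number called was 8 without OL miR-ctl replicate 1 and 0 without either OPC anti-miR-ctl library, and without OL miR-ctl replicate 2 the differences of Lss and Cyp51 turned positive, at 0.07 and 0.02. The interferon response genes were called lower in OL miR-ctl for 10 of 10 (median log2 fold change -7.58), and 5 of 6 astrocyte genes were called higher. Over all genes 28.7% were called lower and 28.8% higher. The part of these marker genes in the enzyme levels was not tested.

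The other enzymes of the pathway mostly had differences of the same sign. Of 14 listed, 13 were found in the files under their symbols, and the expression of Lbr, whose promoter window is counted above, was not analysed here. In OPCs given the inhibitor, where 12.1% of all genes were called higher, all 13 had a higher mean and 8 rose (median log2 fold change 0.42). Among these were Mvk, mevalonate kinase, at 70.9 and 63.8 CPM against 42.2 and 40.7 CPM (0.72 ± 0.09, edgeR adjusted p = 0.0018), Mvd, the mevalonate diphosphate decarboxylase (0.68, edgeR adjusted p = 0.00339), Fdps, which makes farnesyl diphosphate (0.55, edgeR adjusted p = 0.0118), Pmvk (0.53), Nsdhl, a partner of Msmo1 in C4 demethylation (0.48), Tm7sf2, a C14 sterol reductase (0.42), and Acat2, the cytosolic thiolase (0.38). Hsd17b7 (0.23), Ebp (0.21), Sc5d (0.20) and Ggps1, which leads to geranylgeranyl diphosphate rather than to sterols (0.06), were among those not called.

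In OL miR-145, 12 of the 13 had a lower mean and Ebp a higher one (0.14), with 0 called (median -0.30). Fdps was at 223 and 150 CPM against 332 and 237 CPM in OL miR-ctl. With both mimics 12 of 13 were lower than in OL miR-ctl and 12 of 13 higher than in OL miR-145, with 0 called in either.

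Between the controls, 9 of the 13 fell from OPCs to OLs and 2 rose, where 28.7% of all genes were called lower and 28.8% higher. Among those that fell, Acat2 fell by 1.11 (edgeR adjusted p = 0.00977), Hsd17b7, the 3-keto sterol reductase, by 0.96, Fdps by 0.83, Mvd by 0.56, Nsdhl by 0.53, Mvk by 0.46 and Ebp by 0.44 on the log2 scale. Sc5d, the lathosterol desaturase, rose by 0.60 (edgeR adjusted p = 0.0153), at 297 and 229 CPM in OL miR-ctl against 172 and 176 CPM in OPC anti-miR-ctl, and Tm7sf2 rose by 0.52 (edgeR adjusted p = 0.00669). Pmvk (-0.24) and Ggps1 (0.27) were not called. The levels of the other enzymes were therefore not uniformly lower in OLs.

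**Figure D3:**
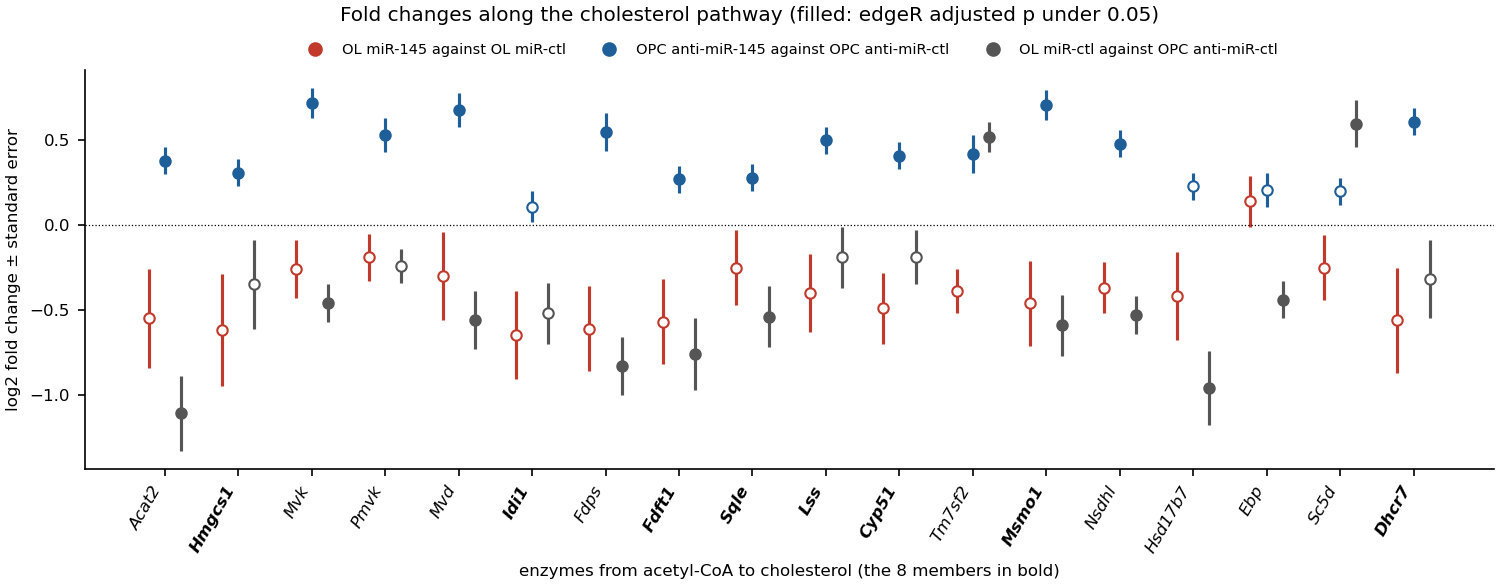
log2 fold change ± SE (y axis) of the 8 enzymes (bold) and 10 other enzymes of the pathway, placed along the x axis from acetyl-CoA to cholesterol, in 3 comparisons (colours; filled where edgeR's adjusted p was under 0.05). In OPCs given the inhibitor every point is above 0, in OLs given miR-145 all but Ebp are below 0 with 0 filled, and between the controls Tm7sf2 and Sc5d stand above 0.

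Of 7 regulators of the pathway, 4 rose in OPCs given the inhibitor and 0 fell, against 12.1% of all genes called higher and 16.0% lower. Insig1, the sterol-dependent anchor that is itself a target of SREBP2, was at 345 and 349 CPM against 258 in both controls (log2 fold change 0.44 ± 0.08, edgeR adjusted p = 0.00604). Srebf2 was at 335 and 353 CPM against 277 and 261 CPM (0.37 ± 0.08, edgeR adjusted p = 0.015). Srebf1, whose product mainly drives fatty acid synthesis, rose by 0.41 (edgeR adjusted p = 0.0187), and Scap, named after its values were seen for this comparison, rose by 0.28 (edgeR adjusted p = 0.044).

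In OL miR-145 the regulators split. Srebf2 was at 162 and 153 CPM against 209 and 173 CPM in OL miR-ctl (log2 fold change -0.27, edgeR adjusted p = 0.436) and Insig1 at 175 and 107 CPM against 275 and 173 CPM (-0.67, edgeR adjusted p = 0.423). Srebf1 was at 118 and 122 CPM against 79.7 and 70.8 CPM (0.68 ± 0.11, edgeR unadjusted p = 0.00146, adjusted p = 0.158). Srebf1 was separate and higher with the mimic while Srebf2 was separate and lower. edgeR called neither, and DESeq2 called Srebf1 (DESeq2 adjusted p = 0.00108). Between the controls Srebf1 rose by 1.56 from OPCs to OLs (edgeR adjusted p = 0.00019) and Scap by 0.51 (edgeR adjusted p = 0.00847), whereas Srebf2 fell by 0.50 (edgeR adjusted p = 0.0139) and Insig1 did not pass (-0.21, edgeR adjusted p = 0.454).

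Uptake and transport genes were found for 6 of 7 listed. In OPCs given the inhibitor 2 rose and 1 fell, against 12.1% of all genes called higher and 16.0% lower. Lrp8, an apolipoprotein E receptor, was at 105 and 122 CPM against 87.0 and 83.4 CPM and rose by 0.43 on the log2 scale (edgeR adjusted p = 0.0147). Scarb1, the scavenger receptor for high density lipoprotein, fell by 0.39 (edgeR adjusted p = 0.0307). Stard4, a cytosolic sterol carrier, was at 62.9 and 79.4 CPM against 72.4 and 67.7 CPM, overlapping. In OL miR-145 0 of the 6 were called, with Stard4 at 15.7 and 13.0 CPM against 26.1 and 14.4 CPM in OL miR-ctl (-0.49, edgeR adjusted p = 0.516). From OPCs to OLs, Stard4 fell by 1.79 (edgeR adjusted p = 0.00389), while Npc1 and Npc2, which move cholesterol out of lysosomes, rose by 1.31 and 0.60, and Scarb1 rose by 1.18 (edgeR adjusted p = 0.0287; the third gene called higher, named after its value was seen).

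Genes of efflux, storage and the LXR receptors moved both ways, with 2 of 9 called higher and 4 called lower in OPCs given the inhibitor, against 12.1% and 16.0% of all genes. Those that rose were Apoe, the main apolipoprotein of the brain (log2 fold change 0.98 ± 0.15, edgeR adjusted p = 0.00347, 2466 and 1828 CPM against 1146 and 1053 CPM), and Mylip, a ubiquitin ligase induced by LXR (0.49, edgeR adjusted p = 0.0262). Ch25h, the cholesterol 25-hydroxylase, fell by 1.29 ± 0.16 (edgeR adjusted p = 0.00133), at 9.46 and 7.04 CPM against 21.4 and 19.3 CPM, and Nr1h3, the LXR alpha receptor, fell by 1.57 (edgeR adjusted p = 0.00191). Abcg1 and Soat1, named after their values were seen, fell by 0.61 and 0.32 (edgeR adjusted p = 0.0139 and 0.0392). Abca1, the cholesterol exporter, was at 112 and 138 CPM against 151 and 143 CPM (-0.22, edgeR adjusted p = 0.17). Ch25h is known to be induced by interferon, and the part of the interferon genes in its fall was not tested.

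In OL miR-145 0 of these 9 genes were called, and Ch25h was at 3.12 and 6.11 CPM against 1.36 and 2.21 CPM. From OPCs to OLs Abca1 rose by 2.33 (edgeR adjusted p = 5.35e-05), at 751 and 725 CPM against 151 and 143 CPM, Apoe rose by 1.90 (edgeR adjusted p = 0.000624), Nr1h2, named after its value was seen, by 0.53 (edgeR adjusted p = 0.00702), Ch25h fell by 3.53 (edgeR adjusted p = 0.000279) and Abcg1 by 1.30 (edgeR adjusted p = 0.000479). Abca1 and Apoe were thus higher in the OL controls, in which most of the synthesis enzymes had lower means.

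**Figure D4:**
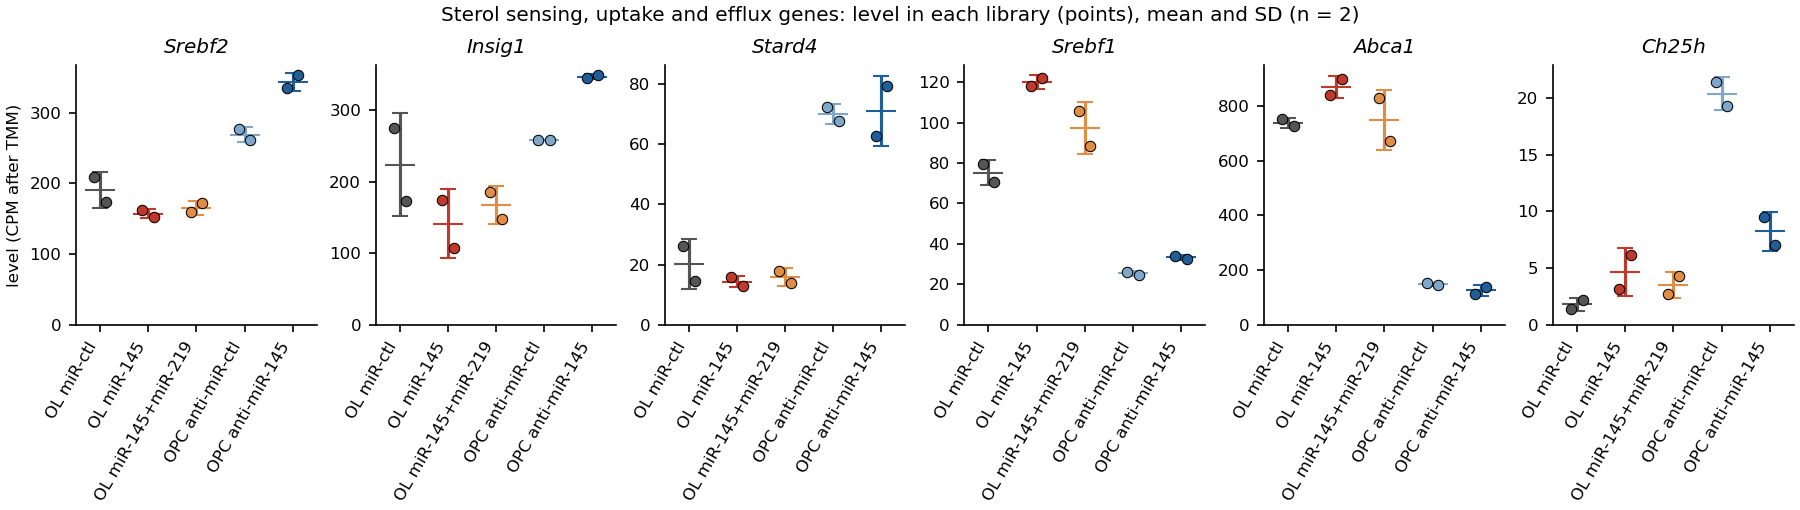
Level in CPM after TMM (y axis, from 0) in each library (points), with mean and SD of 2 libraries, for Srebf2, Insig1, Stard4, Srebf1, Abca1 and Ch25h. Srebf2 and Insig1 are highest in OPC anti-miR-145, as the enzymes are, and Stard4 is higher in the 4 OPC libraries than in the 6 OL libraries, whereas Srebf1 and Abca1 are higher in all 6 OL libraries than in the 4 OPC libraries, and Ch25h is highest in OPC anti-miR-ctl.

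The pattern shared by the 8 enzymes was set beside those of 10718 genes with a mean of at least 5 CPM. The measure was the root mean square difference, over the 10 libraries, between a gene's log2 CPM centred on its mean and the mean of the 8 centred enzymes, so a smaller value is a closer likeness. That mean stood at 0.73 in both OPC anti-miR-145 libraries, at 0.34 and 0.35 in OPC anti-miR-ctl and at -0.35 and -0.87 in OL miR-145. The 8 enzymes themselves lay between 0.089 (Dhcr7) and 0.175 (Msmo1) from it. Each of them is part of that mean, so their values are not comparable with those of other genes. Of the listed genes, Insig1 was at 0.0904, Nsdhl at 0.116 and Srebf2 at 0.171, while Sc5d was at 0.618 and Srebf1 at 1.34. Outside the lists the 5 nearest were Atcay (0.0988), Kiz (0.114), Aacs, which makes acetoacetyl-CoA for lipid synthesis (0.117), Nlgn2, a synaptic adhesion protein (0.123), and Bex3 (0.135). Aacs was at a mean of 146 CPM in OPC anti-miR-145, 101 CPM in OPC anti-miR-ctl and 53.8 CPM in OL miR-145. These likenesses are descriptions over libraries that share groups and depth.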

How the data were processed

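Strand-specific mRNA libraries (TruSeq Stranded mRNA) of 5 groups of 2 were sequenced on an Illumina NextSeq. Reads were quantified by the authors with Salmon v0.12.0 against GENCODE Rnor6.0 transcripts and summarised with tximport. The deposited values are estimated counts per gene, not normalized. Between 16.0% and 17.5% of a library's values were not whole, and counts were rounded, after which 4036 of 23487 genes were at 0 throughout. A further deposited table holds the authors' own DESeq2 results (a mean signal, log2 fold changes, scores and p-values), of which the symbols alone were used. They name 14561 genes. Salmon divides reads among similar transcripts, so levels of genes with annotated copies are less certain.

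For each of 5 comparisons the 4 libraries concerned were fitted in edgeR 4.0.16 under R 4.3.3 (TMM, quasi-likelihood F-test, a minimum of 5 counts in 2 libraries, Benjamini-Hochberg adjustment over all genes tested, two-sided). Standard errors are the log2 fold change over the square root of F. Alternatives were DESeq2 1.42.0, its size factors, other filters on low counts, all 10 libraries in a single fit, a replicate block and leaving out each library. Scripts were tested on simulated data. The 8 genes and all lists were chosen with earlier results of these data known. Named were the 8 genes, the other enzymes, Srebf2, Srebf1, Insig1, Stard4, Abca1, Apoe, Ch25h, the 2 genes of each list with the smallest p among those called in each direction of each comparison, and the 5 genes outside the lists with the nearest pattern. Some listed genes are counted but not reported here by name. The marker lists for fibroblasts or mural cells, neurons and endothelium summed to at most 24.3, 136 and 20.2 CPM in any library.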

Additional observations from a re-analysis of the deposited data

How the results depend on the processing

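With 2 libraries per group, precision for the enzymes in OL groups was limited by the spread between libraries more than by depth. In OPC groups the libraries differed by no more than counting error for some enzymes, such as Fdft1. The counts of genes called moved with the test. For OL miR-145 against OL miR-ctl edgeR called 0 genes (2067 at an unadjusted p under 0.05), DESeq2 649, the fit of all 10 libraries 32 and the replicate block 2272. For OL miR-145+miR-219 against OL miR-ctl it was 0 (956 unadjusted), with DESeq2 106, with no filter 1 and with the replicate block 132, and for OL miR-145+miR-219 against OL miR-145 it was 0 (228 unadjusted), with DESeq2 9 and with the replicate block 184. With 1 library left out these 3 comparisons gave from 0 to 0 genes and enzymes called. For OPC anti-miR-145 against OPC anti-miR-ctl 4348 genes were called, 2553 in the fit of all 10 libraries and 2348 to 7133 with 1 library left out, and for OL miR-ctl against OPC anti-miR-ctl 9042, with 4780 to 10306.

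Of the 8 enzymes, the OPC inhibitor comparison called 7, but 0 in the fit of all 10 libraries, 4 with the replicate block and 2 to 7 with 1 library left out. The comparison of the controls called 3, and 0 to 8 with 1 library left out. The cause was not tested. The block called 7 enzymes in OL miR-145 against OL miR-ctl, all but Sqle, where the main test called 0. Deviations of same-numbered libraries correlated across genes at 0.204 between these groups, at 0.203 and 0.358 between OL miR-145+miR-219 and OL miR-ctl or OL miR-145, and at -0.0479 between the OPC groups. With 2 pairs and no label on what a number marks, the numbers are not shown to pair the libraries.

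Directions reversed where single OL libraries were left out. Without OL miR-ctl replicate 1, the log2 fold change of Sqle in OL miR-145 became 0.04 (-0.50 to 0.04 over the 4 fits), and with both mimics those of Hmgcs1 (-0.65 to 0.15), Idi1 (-0.53 to 0.01), Fdft1 (-0.58 to 0.07), Sqle (-0.39 to 0.15), Lss (-0.42 to 0.14), Msmo1 (-0.49 to 0.04) and Dhcr7 (-0.66 to 0.05) turned positive. For both mimics against miR-145 alone, Sqle (-0.07 to 0.29), Msmo1 (-0.04 to 0.49) and Dhcr7 (-0.08 to 0.56) turned negative without OL miR-145 replicate 2, and Sqle also, at -0.03, without OL miR-145+miR-219 replicate 1. Between the controls, Lss (-0.48 to 0.07) and Cyp51 (-0.42 to 0.02) turned positive without OL miR-ctl replicate 2. In OPCs given the inhibitor no enzyme reversed under these alternatives. Without TMM the group levels moved by at most 7.05%, and with DESeq2 size factors by at most 1.29%. Without TMM 13 of the 40 levels moved by at least the SD of their 2 libraries, and with DESeq2 size factors 0 did.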
